A study of Mus musculus with 8 samples.

Results

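Forebrain neurectoderm is the front of the neural plate, and in the E8.5 chimaeric mouse embryos examined here it was represented by 1198 cells of the 37186 that passed the filters on UMIs (unique molecular identifiers, each counting 1 captured RNA molecule). A cell was a member if it carried at least 1 UMI of Sox2, at least 1 UMI of at least 2 of the 5 genes Six3, Hesx1, Rax, Lhx2 and Fezf1, and 0 UMIs of En1 and En2, the homeobox genes of the midbrain-hindbrain boundary. The chimaeras were made by injecting Tet-TKO ES cells, which lack the DNA demethylases Tet1, Tet2 and Tet3, into wild-type C57BL/6J blastocysts. The ES cells came from 1 line on a mixed C57BL/6J-129Sv background and carried an H2B-tdTomato reporter under the CAG promoter, and the WT host cells carried neither the deletions nor the reporter. Embryos were pooled and live cells were sorted by tdTomato before 3′ single-cell RNA-seq, and at E8.5 this gave 4 Tet-TKO libraries with 454 members and 2 WT host libraries with 744 members. The comparison asked how loss of the 3 TET enzymes was reflected in forebrain cells. Genotype cannot be told apart here from strain, from ES cell origin or from reporter expression, because these differed between the sorted fractions in the same way, and no wild-type ES cell chimaera was analysed here.

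The anterior neural plate gives rise to the telencephalon, hypothalamus and eyes. Six3 and Hesx1 are homeobox repressors that mark it early and keep Wnt signalling low there. Rax and Lhx2 belong to the eye field network, Fezf1 is a zinc finger repressor of the rostral forebrain, and Sox2 marks neural progenitors generally. TET enzymes oxidise 5-methylcytosine and so open a path to DNA demethylation, and Wnt, FGF, Hedgehog and retinoic acid signals pattern the plate along its axes.

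The E8.5 libraries held 65601218 to 136982886 UMIs. They differed in cell number and depth per cell: the members of Tet-TKO libraries 1 to 4 had a median of 18059, 13555, 42636 and 75195 UMIs, and those of WT host libraries 1 and 2 had 15106 and 14947. Libraries 3 and 4 of the Tet-TKO group therefore stood apart, with fewer and deeper cells. tdTomato UMIs were seen in 69.3%, 63.6%, 94.7% and 87.5% of Tet-TKO members and in 1 member of each WT host library (0.312% and 0.236%). The 3′ counts of the Tet genes do not test the deletion, because RNA from a deleted locus can still carry its 3′ end. No cell barcode was shared between members of different libraries. Xist stood at 31.1, 40.3, 0.226 and 1.67 CPM (UMIs per 1000000 UMIs of the members of a library) in Tet-TKO members and at 497 and 445 CPM in WT host members. Y-linked genes were lower in Tet-TKO members too, with Ddx3y at 0.226 to 9.23 against 14.9 and 16.3 CPM, Eif2s3y at 0 to 8.62 against 19.5 and 24.0 CPM and Kdm5d at 0 to 1.85 against 5.10 and 6.81 CPM, while Uty overlapped at 3.66 to 7.39 against 4.44 and 4.91 CPM. None of these 5 genes was called by edgeR or DESeq2 (4 with an unadjusted p below 0.05), and the part of sex composition in the other differences was not tested.

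The label was checked against forebrain genes that the rule did not use, comparing members with the other kept cells of the same library. Otx2, a homeobox gene of forebrain and midbrain, was 14.2 to 17.8 times higher in members in the Tet-TKO libraries and 11.1 to 14.9 times higher in the WT host libraries. The LIM homeobox gene Lhx5 was 28.3 to 48.8 and 25.3 to 39.0 times higher. Six6, of the eye field and ventral forebrain, was 37.7 to 291 and 63.9 to 84.6 times higher. Pax6 was 3.78 to 5.55 times higher in Tet-TKO and 8.33 to 11.8 times higher in WT host libraries, and Emx2, of the dorsal telencephalon, was 1.60 to 6.52 and 23.3 to 24.3 times higher. All of these genes thus stood higher in members in each of the 6 libraries. These ratios describe the selected cells and were not tested, since members and remaining cells were separated by expression. The contrast with midbrain-hindbrain boundary cells, chosen by Sox2, En1 or En2 and fewer than 2 of the 5 markers, was smaller. Summed over 25 forebrain transcription factors outside the rule, members had 586 to 835 CPM in Tet-TKO and 864 to 886 CPM in WT host libraries. Boundary cells had 500 to 595 and 616 to 646 CPM, and all remaining cells had 136 to 277 and 142 to 202 CPM. Of 887 cardiomyocytes, cells that should lack the forebrain genes, 2 carried UMIs of at least 2 of the 5 markers.

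Of the kept cells of each library, members were 2.32%, 1.73%, 4.09% and 3.17% for Tet-TKO 1 to 4, and for the WT host they were 3.89% and 4.68%. The means were 2.83% ± 1.03 (SD, n = 4) and 4.28% ± 0.560 (SD, n = 2), and the geometric mean was 1.59-fold lower in Tet-TKO. The groups overlapped, with 3 of 4 Tet-TKO values below the WT host range, and the difference did not pass an exact permutation test over the 6 libraries (p = 0.267, 1-sided p doubled). Passing the rule depends on depth, so each cell was also thinned to 5000 UMIs, which left out 962 shallower Tet-TKO cells and 1276 WT host cells. Members were then 0.799%, 0.709%, 0.990% and 1.09% of Tet-TKO cells and 2.67% and 2.80% of WT host cells, 3.1-fold lower in Tet-TKO by geometric mean with no overlap (p = 0.133, the smallest value this exact test can give). At equal depth the deep Tet-TKO libraries 3 and 4 lay below the WT host range as the shallow ones did. Among cells with a Sox2 UMI, members made up 11.5%, 7.27%, 12.2% and 9.07% in Tet-TKO and 16.1% and 17.2% in WT host libraries, again without overlap (exact permutation p = 0.133). All these shares count cells by UMIs of the rule genes. The tests therefore cannot tell fewer forebrain cells from less RNA of these genes per cell. These shares measure counted cells of pooled, sorted embryos, and the blood content of the 2 fractions differed; with cells above 5% haemoglobin UMIs left out of the total, the log2 ratio was −0.94 in place of −0.67.

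**Figure D1:**
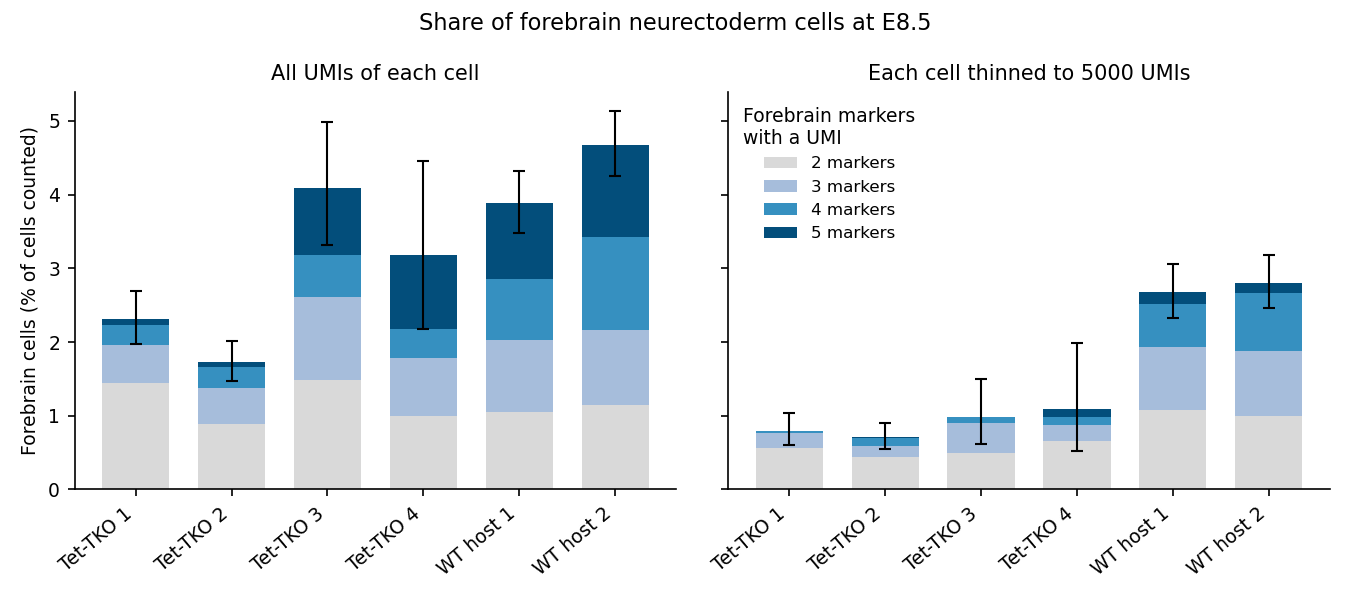
Forebrain members as a percentage of kept cells in each E8.5 library, as counted (left) and after thinning every cell to 5000 UMIs (right); bars are stacked by the number of markers with a UMI, and error bars are exact 95% binomial intervals, which cover counting error only. As counted, the Tet-TKO libraries span 1.73% to 4.09% and reach into the WT host range; after thinning they lie at 0.709% to 1.09% against 2.67% and 2.80%.

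Tet-TKO members carried fewer of the 5 markers. Members with 4 or 5 markers were 15.3%, 20%, 36.2% and 43.8% of the members of Tet-TKO libraries 1 to 4, and for the WT host they were 48.0% and 53.9%, although Tet-TKO libraries 1, 3 and 4 were the deeper ones. After thinning these shares were 3.70%, 17.2%, 9.09% and 20% against 27.7% and 33.0%. Cells with 4 or 5 markers after thinning were 0.0296%, 0.122%, 0.0900% and 0.218% of Tet-TKO cells and 0.740% and 0.926% of WT host cells, 9.03-fold lower by geometric mean. They numbered only 2, 11, 2 and 2 in Tet-TKO libraries 1 to 4, against 57 and 77 in the WT host libraries, so these shares are imprecise. Over all libraries 422 members had 2 markers, 288 had 3, 246 had 4 and 242 had all 5. Of the members with exactly 2 markers, pooled over libraries that differed in depth and number of such cells (102, 85, 34 and 10 in Tet-TKO 1 to 4), 59.3% of Tet-TKO cells (137 of 231) and 42.9% of WT host cells (82 of 191) carried Six3 with Hesx1. Six3 with Lhx2 followed with 21.2% and 17.8%, and Six3 with Fezf1 with 6.49% and 14.7%. Just outside the threshold were 885 Sox2-positive cells with a single marker, 484 of them Tet-TKO. A further 42 cells had 2 or more markers but also En1 or En2 UMIs, and 128 had 2 or more markers without a Sox2 UMI. These counts come from the genes that chose the cells and carry no test.

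The rule genes differed in how far their levels in the members lay apart between genotypes, and the following values are likewise a description. Six3 had 262, 301, 253 and 193 CPM in Tet-TKO and 333 CPM in both WT host libraries, a log2 fold change of −0.38. Hesx1 had 182, 161, 95.6 and 79.6 CPM against 250 and 162 CPM, so that the groups overlapped. Rax had 20.9, 37.0, 38.6 and 51.7 CPM against 100 and 117 CPM, a log2 fold change of −1.56. For this eye field gene the groups did not overlap. Lhx2 had 31.7, 53.7, 64.5 and 82.9 CPM against 111 and 164 CPM, a log2 fold change of −1.25. Fezf1 had 15.4, 28.1, 19.6 and 26.7 CPM against 60.3 and 69.4 CPM, a log2 fold change of −1.54. Rax, Lhx2 and Fezf1 lay lower in every Tet-TKO library, by more than Six3 and Hesx1 on the fitted scale. Sox2 had 224, 244, 175 and 171 CPM against 395 and 321 CPM, a log2 fold change of −0.79.

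The share of cells with a UMI gave the same order after thinning, though the groups overlapped once the cells were also chosen at equal depth. In cells chosen on all their UMIs and then thinned to 5000 UMIs, Rax was seen in 8.64% to 19.4% of Tet-TKO members and 32.6% to 40.7% of WT host members. Before thinning the shares were 24.5% to 50.0% and 57.6% to 62.4%. Fezf1 was seen after thinning in 3.70% to 19.4% and 26.3% to 27.2%, and Lhx2 in 14.2% to 26.6% and 36.7% to 49.4%. Six3, at 50.0% to 72.2% and 68.7% to 74.5%, and Hesx1, at 29.0% to 54.9% and 45.1% to 65.5%, overlapped between the groups. With the rule applied to the thinned cells themselves, Rax, Lhx2 and Fezf1 overlapped as well. Rax was then seen in 18.5% to 50.0% of Tet-TKO members against 44.7% and 54.5% of WT host members. Lhx2 was seen in 20.4% to 50.0% against 47.6% and 66.5%, and Fezf1 in 11.1% to 40.0% against 36.9% and 35.2%. These shares rested on 54, 64, 22 and 10 members in Tet-TKO libraries 1 to 4. In cardiomyocytes the highest share before thinning in any library was 2.59% for Six3, 2.13% for Hesx1 and for Rax and 0.704% for Fezf1. Lhx2 was the exception, with a UMI in 23.4% of the cardiomyocytes of Tet-TKO library 4, which had a median of 67458 UMIs, beside 84.4% of the members of that library. In WT host cardiomyocytes the share was at most 3.72%.

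**Figure D2:**
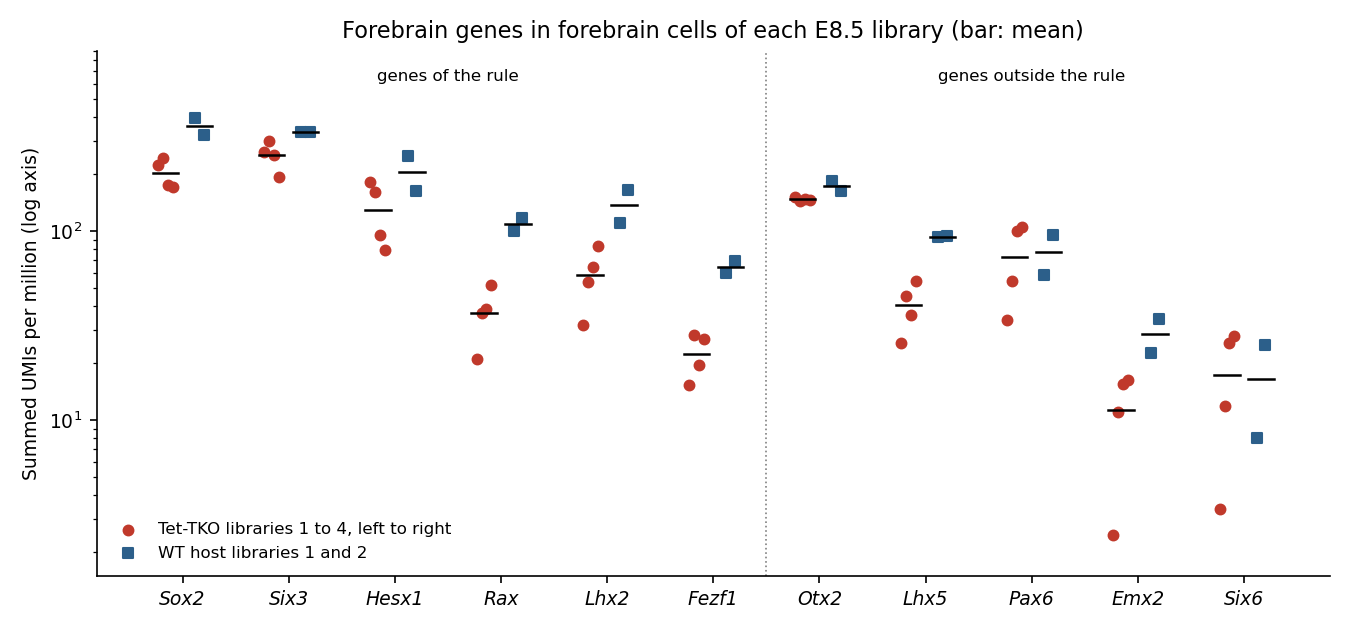
CPM of the rule genes and of 5 forebrain genes outside the rule in the forebrain members of each library, on a log axis; red circles are the 4 Tet-TKO libraries in order, blue squares the 2 WT host libraries and bars the means. Sox2, Six3, Rax, Lhx2, Fezf1, Otx2, Lhx5 and Emx2 lie lower in every Tet-TKO library than in both WT host libraries, by the smallest log2 fold change for Otx2 (−0.22), and Hesx1, Pax6 and Six6 overlap.

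Genotype was tested on counts summed over the members of each library, with edgeR's quasi-likelihood test over 11415 genes. A gene was called at a Benjamini-Hochberg adjusted p below 0.01 with at least a 2-fold change, and 48 genes (0.420%) were called, 27 higher (0.237%) and 21 lower (0.184%) in Tet-TKO. The tdTomato reporter, on which the cells were sorted, was 1 of the 27. The median log2 fold change of all genes was 0.02, and 1060 genes (9.29%) lay above, and 1640 (14.4%) below, both WT host libraries in every Tet-TKO library regardless of p. An unadjusted p below 0.05 was reached by 1596 genes, and DESeq2 called 128. All 48 called genes lay outside the WT host range in all 4 Tet-TKO libraries. The number of calls rested on single libraries: it was 25 without Tet-TKO library 2, 22 without library 3, 12 without WT host library 1 and 8 without WT host library 2. It was 94 without both deep Tet-TKO libraries. The 4 Tet-TKO libraries fell into 2 sets: a chi-square per degree of freedom between their member counts was 2.17 for libraries 1 and 2 and 3.14 for libraries 3 and 4, 10.4 to 12.7 between the sets and 5.06 for the WT host pair. With each set summed to 1 sample there were 16 calls, so an n of 4 may overstate the number of independent samples. The p-values measure the spread between libraries within both groups, and the WT host group had only 2 libraries. Embryos were pooled, and the labels do not say whether each library was a separate pool.

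No gene among the 22 tested forebrain transcription factors outside the rule was called by edgeR, 5 had an unadjusted p below 0.05, and DESeq2 called Lhx5 lower and Zic1 higher. Their median log2 fold change was 0.14, 2 lay above and 5 below both WT host libraries in every Tet-TKO library, beside 9.29% and 14.4% of all genes, and the median changed sign in 6 of the alternative settings. Lhx5 was closest to a call, with 25.5, 45.5, 35.9 and 54.6 CPM in Tet-TKO and 92.7 and 94.2 CPM in WT host members. Its log2 fold change was −1.22 ± 0.23 (SE, adjusted p = 0.0418), and it is named because of its value. Lhx5 was also seen after thinning in 9.26% to 25.8% of Tet-TKO and 33.0% to 35.8% of WT host members. Emx2 had 2.46, 11, 15.6 and 16.3 CPM against 22.6 and 34.3 CPM (−1.34 ± 0.45, adjusted p = 0.230). Among the most abundant genes of the list, Pou3f1, a POU factor of early neural cells, had a log2 fold change of −0.64 ± 0.23 (adjusted p = 0.260) with 98.8 to 169 CPM against 183 and 237 CPM. Otx2 had one of −0.22 ± 0.12 with 144 to 152 CPM against 163 and 183 CPM, so that the groups did not overlap for either gene, and Tcf7l1, a repressor of Wnt targets, had one of 0.21 ± 0.15. None of the 10 tested eye field and optic vesicle genes was called by edgeR or DESeq2 (2 with an unadjusted p below 0.05), with a median of −0.08 that was 0.01 without Tet-TKO library 1, −0.21 without library 3 and −0.19 without library 4. Pax6 had 33.9, 54.5, 99.7 and 105 CPM against 58.7 and 95.3 CPM, and Six6 had 3.39, 11.8, 25.7 and 27.9 CPM against 8.05 and 25.0 CPM, so both groups overlapped for each gene.

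**Figure D3:**
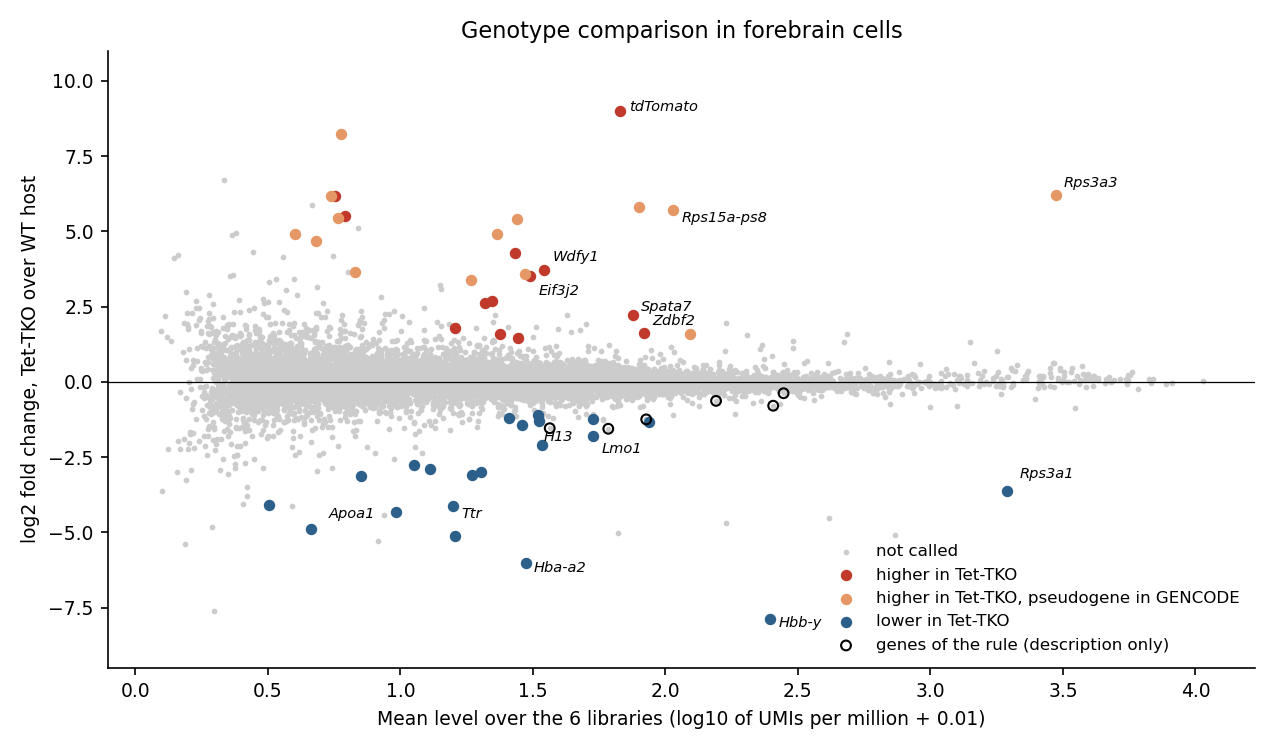
Log2 fold change of Tet-TKO over WT host against mean level for the 11415 genes tested in forebrain members; colours mark the 48 called genes and open circles the 6 rule genes that were tested in the fit, shown as a description. Rps3a3 and Rps3a1 stand out among abundant genes, at 6.21 and −3.62, and 14 of the 27 genes called higher are annotated as pseudogenes.

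The most abundant called genes were a ribosomal protein gene and its processed copy. Rps3a1, which encodes a protein of the small ribosomal subunit, had 463, 501, 347 and 292 CPM in Tet-TKO and 5187 and 4902 CPM in WT host members. Its log2 fold change was −3.62 ± 0.23 (adjusted p = 0.000128). Rps3a3, annotated as a processed pseudogene, had 4796, 4588, 4179 and 4123 CPM against 80.5 and 40.9 CPM, a log2 fold change of 6.21 ± 0.33 (adjusted p = 3.8e-05). Over the 795 bases aligned from both annotated transcripts (GENCODE M21, GRCm38) they differed at 9 positions without gaps, an identity of 98.9%. The last 122 coding bases, which lie nearest to the 3′ end that the assay reads, are given from chr3:86137989-86138110 (minus strand, Rps3a1 exon) and chr13:108671276-108671397 (plus strand, Rps3a3), with the 2 differing bases in capitals.
Rps3a1: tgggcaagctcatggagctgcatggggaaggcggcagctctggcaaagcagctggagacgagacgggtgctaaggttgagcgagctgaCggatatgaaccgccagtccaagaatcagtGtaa
Rps3a3: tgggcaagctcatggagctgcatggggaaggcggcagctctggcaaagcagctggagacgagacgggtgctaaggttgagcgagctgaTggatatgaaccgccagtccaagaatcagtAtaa
The sum of both genes was 4822 ± 414 CPM in Tet-TKO (SD, n = 4) and 5105 ± 229 CPM in WT host members (SD, n = 2), with overlapping ranges. Rps3a3 took 90.2% to 93.4% of the sum in Tet-TKO and 0.827% to 1.53% in WT host members. The genotypes thus differed in the copy that the reads were assigned to, the ranges of the total overlapped, and the counts of near-identical genes are uncertain individually.

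**Figure D4:**
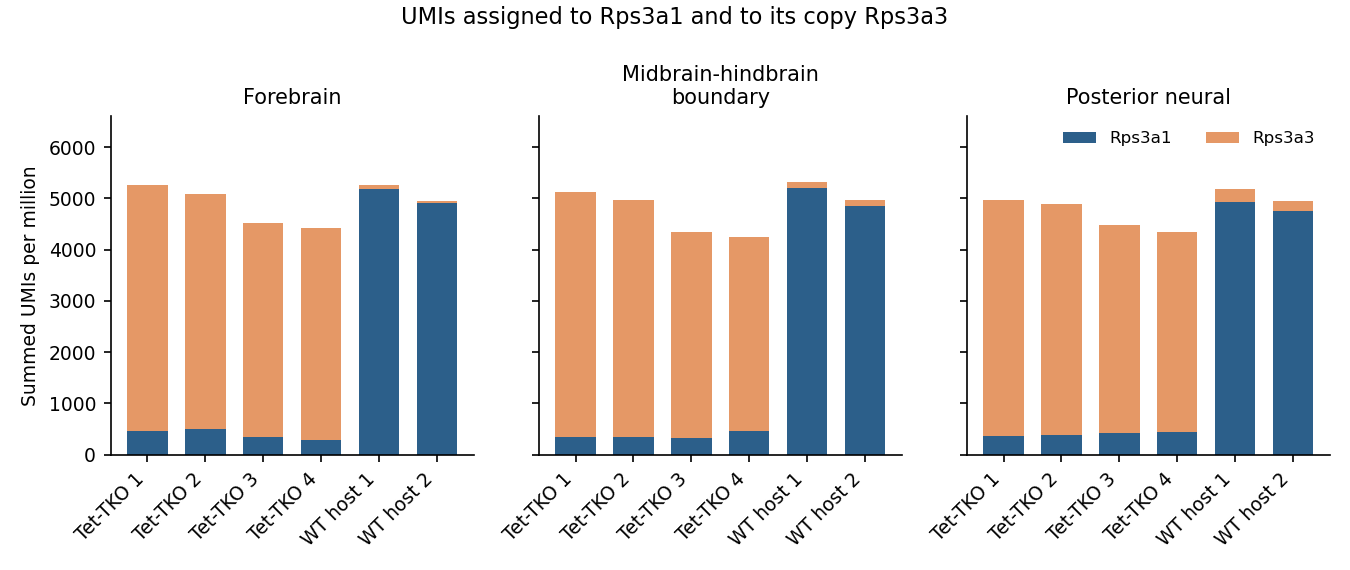
CPM assigned to Rps3a1 (blue) and Rps3a3 (orange), stacked, in forebrain, midbrain-hindbrain boundary and posterior neural cells of each library. The stacks are of similar height in all libraries, and Rps3a3 makes up at least 89.4% of them in Tet-TKO and at most 4.71% in WT host cells.

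Copies of other genes made up much of the set called higher. Of the 27 genes, 14 were annotated as pseudogenes, as were 211 of the 11415 genes tested (1.85%), and none of the 21 genes called lower was. Named after their values were seen, Rps13-ps1 had 80.9 to 158 CPM against 1.77 to 2.37 CPM, beside 2581 to 2843 and 2342 to 2391 CPM for Rps13 itself. Rps15a-ps8 had 152 to 166 CPM against 1.18 to 5.30 CPM. Hmga1b, a retrocopy of the chromatin protein gene Hmga1, rose by a log2 fold change of 2.68 ± 0.29 (25.9 to 39.1 against 4.32 to 5.33 CPM), while Hmga1 had 87.5 to 115 against 180 to 193 CPM. Eif3j2, a copy of a translation initiation factor gene, rose by 3.52 ± 0.29 (30.5 to 57.9 against 3.14 to 4.44 CPM), beside 110 to 185 against 196 to 241 CPM for Eif3j1. BC002163, a processed pseudogene, rose by 3.57 ± 0.33 (30.7 to 53.2 against 3.14 to 4.0 CPM). Reads of each copy and its parent cannot be assigned with certainty, and strain differences in these sequences cannot be told apart from genotype.

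Wdfy1 was called higher in all 20 alternative settings. It encodes an endosomal FYVE-domain protein and lies at chr1:79702262-79776143 on the minus strand of GRCm38. It had 51.1, 45.1, 52.5 and 52.1 CPM in Tet-TKO and 4.12 and 3.55 CPM in WT host members, a log2 fold change of 3.72 ± 0.19 (adjusted p = 3.5e-05). Spata7, which encodes a ciliary protein of photoreceptors, had 88.8 to 116 against 21.5 to 23.2 CPM (2.21 ± 0.18, adjusted p = 0.000604). The kinase gene Sik2 had 27.5 to 31.7 against 3.93 to 5.48 CPM (2.62 ± 0.23). Rbm45, an RNA-binding protein gene, rose by 1.60 ± 0.19, and Adat2, which encodes a subunit of the tRNA adenosine deaminase, rose by 1.45 ± 0.20. The non-coding transcript AA465934 rose by 4.29 ± 0.49, with 24.8 to 60.4 CPM against 1.04 to 3.14 CPM. The zinc finger gene Zfp990 had 113 UMIs in Tet-TKO and 2 in WT host members, a ratio of 53.4 per sequenced UMI with an exact counting interval of 14.4 to 446. In the remaining cells of the same libraries the genotypes differed in the same direction, with Wdfy1 at 36 to 37.9 against 5.15 to 6.89 CPM and Spata7 at 79.9 to 97.4 against 17.8 to 18.6 CPM.

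Lmo1, one of the genes called lower, encodes a LIM-only transcription cofactor found in the developing brain and had 29.9, 30.1, 33.4 and 21.7 CPM in Tet-TKO and 118 and 86.3 CPM in WT host members. It fell by 1.8 ± 0.19 on the log2 scale (adjusted p = 0.0029), and every Tet-TKO library lay well below both WT host libraries. In the remaining cells its level was 4.62 to 6.63 against 5.80 to 7.80 CPM. In cells of the midbrain-hindbrain boundary the log2 fold change was −2.63, where Lmo1 was also called lower, and in posterior neural cells it was 0.02. The edgeR test of the difference from forebrain members called neither contrast (adjusted p = 0.670 and 0.195). Lmo1 was called in 12 of the 20 alternative settings. Ank2, which encodes an ankyrin of neurons and heart muscle, is named after its values were seen. It had 16.3, 16.7, 20.5 and 17.9 CPM against 44.2 and 38.0 CPM (−1.18 ± 0.16, adjusted p = 0.0089). Its log2 fold changes were −0.93 in boundary cells and −0.09 in posterior neural cells. The same test of the difference called neither contrast for Ank2 (adjusted p = 0.932 and 0.0562). Hist1h4i, a histone H4 gene, fell by 2.09 ± 0.22, Klhdc4 by 1.43 ± 0.18, Sdsl by 3.12 ± 0.40 and the zinc finger gene Zfp560 by 2.78 ± 0.32. Hist1h4i and Klhdc4 lay at 16.9 to 19.7 against 67.1 to 76.3 CPM and at 16.4 to 19.5 against 43.9 to 47.2 CPM in the remaining cells as well.

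Among the other genes called lower, Ttr, a carrier of thyroid hormone and retinol, had 4.92, 1.22, 2.48 and 0.417 CPM in Tet-TKO and 35.5 and 50.2 CPM in WT host members (−4.11 ± 0.44, adjusted p = 0.0029). The apolipoprotein genes Apoa1 and Apom fell by 4.33 ± 0.46 and 4.89 ± 0.65. The retinol carrier Rbp4 fell by 2.88 ± 0.23, the calcium-binding protein gene S100g by 4.08 ± 0.48 and the biliverdin reductase gene Blvrb by 3.09 ± 0.41. Of the alternatives in which they could be tested, Ttr was called in 13 of 19, Apoa1 in 12 of 18, Rbp4 in 13 of 18, Blvrb in 10 of 19 and Apom and S100g in 9 of 16; the log2 fold change of Ttr ran from −7.18 to −2.67 and that of Blvrb reached −1.58. These transcripts were far more abundant outside the members in WT host libraries: Ttr had 342 to 1171 CPM there against 3.95 to 34.6 CPM in Tet-TKO, and Apoa1 had 202 to 716 against 2.03 to 17.3 CPM. Of the 9 blood markers tested, Hbb-y and Hba-a2 were called lower, at −7.86 ± 0.99 and −6.03 ± 0.78, in 13 and 12 of the 20 alternatives. Hbb-y had 1.67 to 5.69 CPM against 82.8 and 1398 CPM, so the WT host libraries lay far apart, and its log2 fold change reached −4.71. All 9 markers lay below both WT host libraries in every Tet-TKO library (all genes: 14.4%), with a median of −5.01. This median was −3.43 without WT host library 2 and −2.45 over 5 genes among members passing a filter on markers of other cell types. That filter excluded members with UMIs of Sox10, Foxd3, Foxa2, Pdgfra, Tnnt2, Cdh5 or Gata1, or at least 2 UMIs of Krt18. It used no haemoglobin gene. Summed over the 11 blood markers, members had 9.59 to 408 CPM in Tet-TKO and 1551 to 7075 CPM in WT host libraries, and the remaining cells had 631 to 1785 and 20521 to 50731 CPM. The part of this RNA from other cells in these falls was not tested.

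Beyond the blood markers, imprinted genes were the only list that held a call by edgeR. Of 36 imprinted genes tested, edgeR called 1 higher and 1 lower, and DESeq2 called 4 higher (Zdbf2, Snrpn, Nnat and Peg3) and 2 lower (H13 and Asb4). Over all genes edgeR called 0.237% higher and 0.184% lower, and DESeq2 called 66 higher and 62 lower of 11415. The median log2 fold change was 0.36, or 0.11 over 27 genes among members passing the filter on markers of other cell types. It was 0.22 without WT host library 2 and 0.57 over 25 genes with equal numbers of members per library. Of the 36 genes, 14 lay above and 3 below both WT host libraries in every Tet-TKO library, beside 9.29% and 14.4% of all genes. Zdbf2, a paternally expressed growth gene at chr1:63273265-63314576 (plus strand), had 79.1, 85.8, 129 and 135 CPM in Tet-TKO and 29.8 and 39.4 CPM in WT host members (1.63 ± 0.22, adjusted p = 0.0094). H13, which encodes a signal peptide peptidase and lies at chr2:152669461-152708670 (plus strand), had 16.9, 23.6, 25.5 and 24.2 CPM against 54.2 and 56.4 CPM (−1.29 ± 0.16, adjusted p = 0.0065). The groups did not overlap for either gene, and the remaining cells of the libraries showed the same order, with 81.7 to 139 against 25.4 to 28.8 CPM for Zdbf2 and 21.5 to 24.3 against 51.3 to 59.2 CPM for H13. Zdbf2 was called in 11 and H13 in 9 of the 20 alternative settings. Named after their values were seen, Snrpn, an RNA splicing gene, had 298, 231, 239 and 334 against 142 and 118 CPM (1.10 ± 0.19, adjusted p = 0.0269), and Nnat, a membrane proteolipid gene, had 475, 282, 406 and 319 against 184 and 157 CPM (1.14 ± 0.22, adjusted p = 0.0473). Asb4 had 0.902 to 3.25 against 8.64 and 8.88 CPM (−2.31 ± 0.43, adjusted p = 0.0410). These 3 genes missed the threshold with edgeR and were called by DESeq2.

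Of the genes that write, read or erase DNA methylation, 14 were tested and none was called by edgeR or DESeq2 (3 with an unadjusted p below 0.05), with a median of 0.01. Uhrf1, the partner of the maintenance methyltransferase, had a log2 fold change of −0.39 ± 0.14, Dnmt1 of 0.23 ± 0.12 and Dnmt3b of −0.34 ± 0.39. Tet1 stood at 14.2, 20.7, 27.3 and 32.5 CPM in Tet-TKO and 36.7 and 32.0 CPM in WT host members, Tet2 at 4.0 to 5.64 against 2.36 and 2.37 CPM, and Tet3 at 13.8 to 41.5 against 24.3 and 27.8 CPM. All 18 germline genes known to be silenced by promoter methylation were too low to be tested, summing to 4.96 to 6.77 CPM in Tet-TKO and 1.77 to 1.92 CPM in WT host members. Without the filter on low counts 15 of them could be fitted, 11 with a positive log2 fold change. Their median at these low levels was 1.49, beside −0.03 over all genes fitted. Pluripotency genes (14 tested, median 0.19), glycolysis genes (20 tested, median −0.03) and G2/M genes (20 tested, median −0.02) held no call by either tool, with 5, 1 and 1 genes at an unadjusted p below 0.05. The pluripotency median rested on single libraries: it was −0.21 without Tet-TKO library 1, −0.30 without WT host library 2 and 1.39 without WT host library 1. The glycolysis median was −0.18 without Tet-TKO library 1 and 0.16 without libraries 3 and 4. The G2/M median was −0.09 without Tet-TKO library 1 and 0.08 without library 4. The pyruvate kinase gene Pkm had the lowest adjusted p of the glycolysis list, 0.165, at −0.55 ± 0.16.

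Signals that pattern the forebrain held no gene called by edgeR, nor did the Notch and neurogenesis or neural progenitor lists. DESeq2 called Ptch1 of the Hedgehog list and Nnat of the neural progenitor list. An unadjusted p below 0.05 was reached by 5 Wnt, 8 FGF, 7 Hedgehog, 2 retinoic acid, 4 Notch and neurogenesis and 2 neural progenitor genes, beside 1596 of all 11415 genes. Of 16 Wnt antagonists, ligands and targets tested, 7 lay higher and 9 lower, with a median of −0.13 that was −0.27 without Tet-TKO library 1 and 0.01 without WT host library 1. The secreted Wnt antagonist Sfrp1 had 166 to 197 against 190 to 195 CPM, Dkk1 had 37.0 to 75.4 against 85.8 to 89.6 CPM (−0.66 ± 0.24), and Shisa2 had 69.6 to 119 against 114 to 122 CPM. Of 15 FGF pathway genes, 13 had a positive log2 fold change with a median of 0.82, and 4 lay above both WT host libraries in every Tet-TKO library, beside 52.7% and 9.29% of all genes tested. The ligand Fgf8, which marks the anterior neural ridge, had 37.9, 60.2, 74.9 and 104 CPM against 24.0 and 42.8 CPM (1.04 ± 0.34, adjusted p = 0.226), so the groups overlapped. Its UMIs were not particular to members, in which 31.5% to 50.0% of Tet-TKO and 18.4% to 24.1% of WT host cells carried them. Cardiomyocytes carried them in 35.2% to 51.1% of Tet-TKO and 39.9% to 46.25% of WT host cells. The receptor Fgfr1 was at 0.12 ± 0.18 and Fgf15 at 0.09 ± 0.18. With at least 3 markers required, the median of the 13 genes tested was 0.36, and without the 2 deep Tet-TKO libraries it was 0.38 over 15 genes; with equal numbers of members per library it was 0.06 over 9 genes, 5 of them positive. Of 14 Hedgehog genes, 12 were positive with a median of 0.82, and 4 lay above and 1 below in every Tet-TKO library, beside 9.29% and 14.4% of all genes. The receptor and target Ptch1 had 152, 78.9, 136 and 148 CPM against 67.5 and 48.1 CPM (1.17 ± 0.26, adjusted p = 0.0744), while Gas1, Smo and Gli3 were at −0.39 ± 0.13, 0.08 ± 0.16 and −0.05 ± 0.21. The Hedgehog median was 0.34 over 11 genes with at least 3 markers and 0.23 over 12 genes without the deep libraries. Retinoic acid genes (10 tested, median 0.49) included Crabp2 at 0.17 ± 0.27, and their median turned to −0.09 over 9 genes with at least 3 markers and to −0.26 over 8 genes with 4 or 5 markers. Notch and neurogenesis genes (13 tested, median 0.22) included Hes1 at 0.31 ± 0.21 and the neuronal tubulin gene Tubb3 at −0.83 ± 0.18 (adjusted p = 0.0729). The neural progenitor genes (17 tested, median 0.06) included Ptn at −0.10 ± 0.19, Sox11 at −0.13 ± 0.11 and Sox4 at −0.03 ± 0.12. Their median was −0.01 without Tet-TKO library 3 and also without library 4, and 0.16 without WT host library 2.

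Genes of more posterior neural identity had positive fold changes without a call by edgeR. All 19 tested posterior Hox and Cdx genes had a positive log2 fold change, with a median of 1.75, and 14 lay above both WT host libraries in every Tet-TKO library, beside 9.29% of all genes. Of these 19 genes 15 had an unadjusted p below 0.05, and DESeq2 called Hoxb8 and Hoxc9 higher. Their levels were low: Hoxc8 had 13.8, 15, 9.25 and 42.9 CPM against 5.10 and 5.33 CPM, and the smallest adjusted p was 0.0260, for Hoxc9. Summed over the 22 genes of the list, Tet-TKO members had 126 to 251 CPM and WT host members 56.9 to 66.6 CPM. The sum was 231 to 294 against 47.6 to 70.8 CPM in midbrain-hindbrain boundary cells and 689 to 768 against 414 to 445 CPM in the remaining cells, while in posterior neural cells, which were chosen on 6 of these genes, it was 695 to 1316 against 1534 to 1584 CPM. With at least 3 markers required, 8 genes of the list could be tested, 3 were positive, and the median was −0.41. It was 1.65 over 4 genes with 4 or 5 markers and 1.97 over 5 genes among members passing the filter on markers of other cell types. It was 3.05 over 4 genes with equal numbers of members and 2.56 over 16 genes with predicted doublets removed. Of 20 midbrain and hindbrain genes, 19 were positive with a median of 1.04, and 5 lay above and 1 below in every Tet-TKO library, beside 9.29% and 14.4% of all genes; 9 had an unadjusted p below 0.05, and DESeq2 called Irx1 and Hoxb2 higher. Irx1, a homeobox gene of the caudal neural plate named because of its value, had 20.3, 17.5, 23.2 and 21.3 CPM against 9.62 and 7.25 CPM (1.31 ± 0.21, adjusted p = 0.0238). The abundant Irx3 had 57.9, 39.9, 33.8 and 20 CPM against 25.9 and 12.7 CPM and overlapped between the groups. The median of this list was 0.64 over 14 genes with at least 3 markers.

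**Figure D5:**
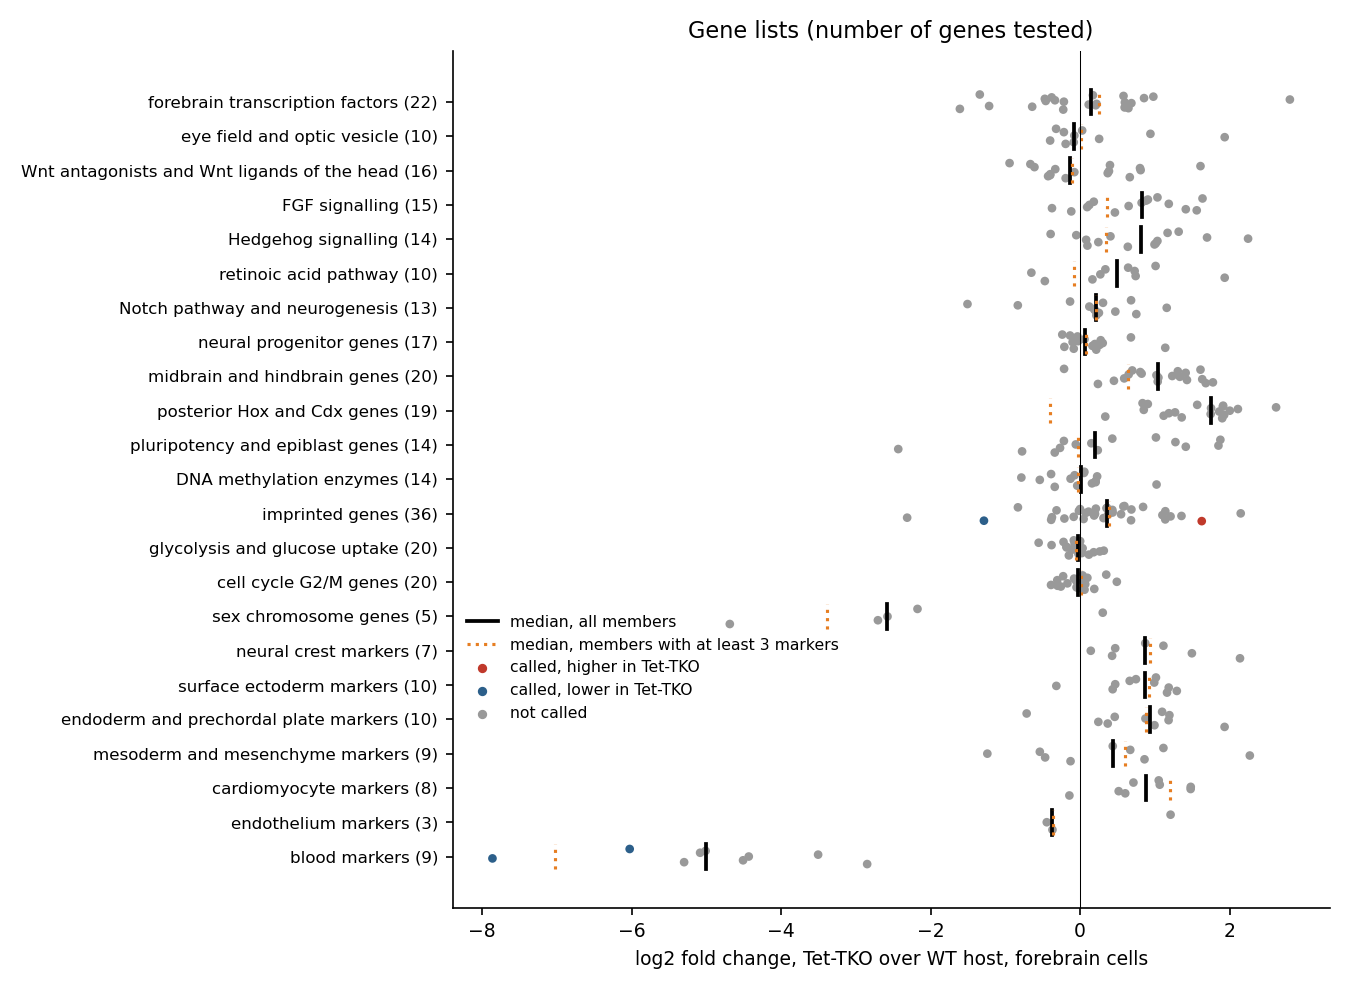
Log2 fold changes of Tet-TKO over WT host for the tested genes of each list in forebrain members; each point is a gene, the black bar is the list's median and the dotted orange bar its median when at least 3 markers were required. The medians are 1.75 for posterior Hox and Cdx genes, 0.82 for the FGF and Hedgehog lists and −5.01 for blood markers (−3.43 without WT host library 2), beside 0.02 over all genes tested.

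Markers of cell types other than blood held no call by edgeR, and DESeq2 called Twist1 and Pdgfra higher. Of the surface ectoderm markers 10 were tested, 3 had an unadjusted p below 0.05, 9 were positive, and the median was 0.87. This median was 0.52 without Tet-TKO library 1, 1.36 without WT host library 1 and 0.07 over 5 genes with 4 or 5 markers. Their sum over 11 genes was 319 to 1145 CPM in Tet-TKO and 306 to 590 CPM in WT host members, and none of them was at 0. The keratin gene Krt18 had 439, 203, 304 and 138 CPM against 222 and 109 CPM. Among members with 2 markers Krt18 had 264 to 593 CPM in Tet-TKO and 228 to 466 CPM in WT host libraries, and among those with all 5 it had 46.8 to 84.0 and 52.4 to 105 CPM. Keratin RNA was thus higher in the members with the fewest markers in both genotypes. Endoderm and prechordal plate markers had a median of 0.94 over 10 genes and sums of 113 to 395 against 99.3 to 199 CPM; the median was 0.42 without Tet-TKO library 1 and also without WT host library 2. Neural crest markers had a median of 0.87 over 7 genes and sums of 126 to 160 against 87.6 to 99.5 CPM, and mesoderm markers had a median of 0.44 over 9 genes and sums of 105 to 150 against 66.2 to 94.8 CPM. With equal numbers of members per library the neural crest median was −0.21 over 3 genes, and without Tet-TKO library 1 the mesoderm median was −0.09. Cardiomyocyte markers summed to 21.3 to 199 against 34.3 to 43.6 CPM with a median of 0.88 over 8 genes, which turned to −1.04 without Tet-TKO library 2 and to −0.63 over 5 genes with predicted doublets removed. Endothelial markers summed to 33.8 to 60.2 against 61.5 to 62.6 CPM with a median of −0.37 over 3 genes and Tie1 at 0 in Tet-TKO. The endothelial median was −0.50 without Tet-TKO library 2, −0.15 without library 3 and 0.46 over 2 genes with predicted doublets removed. The part of these cells in the list medians was not tested. The filter on markers of other cell types left 39, 85, 13 and 8 Tet-TKO members and 170 and 243 WT host members. These were 23.9%, 51.5%, 13.8% and 25.0% of Tet-TKO and 53.0% and 57.4% of WT host members, and passing depends on depth. Tet-TKO library 4 thus fell below the 10 members set as the minimum for a library. The filter used few genes, and UMIs of other markers could remain. Of the 38 called genes that could still be tested, 18 were called again, all 38 with the same direction.

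Lhx5 was also compared between members with the same number of markers. In members with 2 markers Lhx5 had 9.30 to 28.6 CPM in Tet-TKO and 75.4 to 75.9 CPM in WT host libraries. With 3 markers it had 30.2 to 95.2 against 101 to 137 CPM and with 4 markers 45.9 to 90.2 against 93.8 to 112 CPM, again without overlap. With all 5 it had 10.5 to 88.7 and 79.3 to 87.6 CPM, and the groups overlapped through Tet-TKO library 1, which had 6 such members. The lowest value, of Tet-TKO library 2, also rested on 6 members. Other forebrain genes outside the rule overlapped more: Pax6 and Six6 at each number of markers, Otx2 at 2, 3 and 5, and Emx2 at 3 and 5. These subgroups were formed on rule genes, were not matched for depth and were not tested.

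Members that carried Six6 UMIs differed from the others in several genes in the same direction in both genotypes; these splits are a description. Six6 UMIs were carried by 60 Tet-TKO members (4.91% to 31.3% per library) and 92 WT host members (9.35% to 14.7%), beside at most 0.532% of cardiomyocytes. Detection of Six6 depends on depth, and after thinning the shares were 1.23% to 16.1% and 3.48% to 8.92%. Compared with the other members, Six6-positive members had higher Fgf8 within each of the 6 libraries. Fgf8 stood at 40.1 to 154 against 37.7 to 82.4 CPM across the Tet-TKO libraries. Across the WT host libraries it stood at 32.9 to 59.6 against 23.1 to 40.0 CPM. Fgf8 is a ligand of the anterior neural ridge, and cardiomyocytes carried its UMIs too. The following values are pooled over the libraries of each genotype, which contributed unequal shares. The FGF feedback genes Dusp6, at 52.3 against 30.7 CPM and 48.2 against 17.7 CPM, and Spry2, at 32.7 against 18.3 CPM and 31.9 against 16.3 CPM, were higher in all 6 libraries. A further FGF target, Etv4, had 4.03 against 8.83 CPM and 3.54 against 4.79 CPM and was higher in the Six6-positive members of 1 of 4 Tet-TKO and 0 of 2 WT host libraries. Six6-positive members had more Six3, at 492 against 201 CPM and 570 against 301 CPM, and more Lhx2, at 112 against 45.5 CPM and 198 against 133 CPM, again in all 6 libraries.

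The genotype effect in forebrain members was compared with that in 1050 midbrain-hindbrain boundary cells and in 1265 posterior neural cells. Boundary cells carried Sox2 and En1 or En2. Posterior neural cells carried Sox2 and at least 2 of 6 Hoxb genes, with no UMIs of T, En1 and En2. Both populations were also limited to cells with fewer than 2 of the 5 forebrain markers. The difference of the effects was tested by edgeR in 1 fit with library as a block over 12821 genes. Of the 48 genes called in forebrain members, 38 were called in the same direction in boundary cells fitted alone and 27 in posterior neural cells fitted alone. In the test of the difference, 2 genes (0.0156%) were called against boundary cells, and 807 had an unadjusted p below 0.05. Vamp8, a vesicle fusion gene of epithelial and secretory cells, had 18.8 to 65.9 CPM in Tet-TKO and 28.6 to 41.0 CPM in WT host forebrain members, and 7.98 to 15.2 against 20.9 to 39.5 CPM in boundary cells. Its effects differed by 1.84 ± 0.24 on the log2 scale (adjusted p = 0.0045). Rps3a3 differed by 1.13 ± 0.13 against boundary cells (adjusted p = 0.0015) and by 1.98 ± 0.13 against posterior neural cells (adjusted p = 1.3e-07), where it was the only gene called (0.00780%) and 1045 genes had an unadjusted p below 0.05. The Rps3a3 differences lay in the WT host libraries, with 40.9 to 80.5 CPM in forebrain members, 116 to 128 CPM in boundary cells and 198 to 244 CPM in posterior neural cells, while Tet-TKO cells had 3794 to 4796 CPM throughout. Against boundary cells the count was 0 without Tet-TKO library 1 or library 2 (734 and 745 genes at an unadjusted p below 0.05), 1 without WT host library 1, 5 without WT host library 2 and 9 without Tet-TKO library 4, and it was 15 without both deep Tet-TKO libraries. Against posterior neural cells it was 6 without Tet-TKO library 2 and 2 without library 4.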

How the data were processed

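The libraries were 10x Genomics 3′ single-cell RNA-seq of sorted Tet-TKO and WT host cells from pooled chimaeric embryos at E7.5 and E8.5. The authors used Cell Ranger for alignment to mm10, and the deposited values are unnormalized UMI counts for each gene and barcode; the matrix header names software version 3.1.0 and the methods another. Groups were taken from the labels.

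Kept barcodes had 1500 or more UMIs, with no more than 30% from mitochondrial and 35% from ribosomal protein genes. Member counts were summed per library, filtered with filterByExpr, scaled by TMM and tested with edgeR 4.0.16 (quasi-likelihood, Benjamini-Hochberg adjustment over all genes), calling genes at an adjusted p below 0.01 and an absolute log2 fold change of at least 1. CPM scale a gene's UMIs to 1000000 summed UMIs of the members of a library. Shares were compared by an exact permutation test. Doublets were predicted with Scrublet (scanpy 1.11.5) and removed only in an alternative. DESeq2 1.42.0 was an alternative. The tests were checked on counts simulated for independent libraries with the same dispersion for every gene. The check therefore does not cover the sets seen among the Tet-TKO libraries.

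The members and gene lists were chosen with earlier results of these data known. Genes were named if in the rule, if called and in a list, if among the 12 largest rises or falls of other called genes (without tdTomato, haemoglobin genes, Xist, Y-linked genes and Gm, -ps or Rik models), as checks, if among the 4 most abundant tested genes of a list without a call, or if called in a population difference; other names were chosen after their values were seen. Precision is limited by 454 and 744 members in 4 and 2 libraries, and intervals cover counting error only. Sequences were read from GENCODE M21 transcripts. E7.5 libraries, 1 per genotype, entered no comparison. Some results are not reported here.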

Additional observations from a re-analysis of the deposited data

Results flagged for a closer look

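In the 4 Tet-TKO libraries, Adat2 in library 4 (30.01 CPM) lay apart from the other three (36.5 to 36.9 CPM), and Hba-a1 in library 2 (19.9 CPM) lay above the others (0.834 to 3.08 CPM), by Dixon's criterion at the 95% level. Of 58 values tested 2 were set apart, and chance gives about 1 in 20.

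The genotype effect in forebrain members differed by a test of the difference itself for Rps3a3, by 1.13 against midbrain-hindbrain boundary cells and by 1.98 against posterior neural cells, and for Vamp8, by 1.84 against boundary cells, all on the log2 scale. Rps3a3 lost its call against boundary cells without Tet-TKO library 1 (adjusted p = 0.0115), without library 2 (adjusted p = 0.0173) and without WT host library 2 (a difference of 0.72), and Vamp8 lost it without Tet-TKO library 1, 2 or 3 (adjusted p = 0.0270, 0.0284 and 0.0212) or WT host library 1 (adjusted p = 0.0554).

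The E7.5 libraries, which entered no comparison, held 111 Tet-TKO and 114 WT host cells that met the same rule, 2.01% and 1.60% of kept cells. Of these, 86.5% and 91.2% carried exactly 2 markers, and Pou5f1, an epiblast gene, stood at 664 and 366 CPM in them. Six6 was at 0 in both, and 7 and 20 cells met the rule after thinning to 5000 UMIs. There is 1 library per genotype at this stage and no test was made.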

How the results depend on the processing

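The 48 called genes became 128 with DESeq2, 385 without a filter on low counts, 30 with the rule applied to thinned cells, 31 with equal numbers of members, 20 without members carrying markers of other cell types, 16 with Tet-TKO libraries summed in pairs, and 8 to 47 with 1 library left out. With the replicate block, which could use only libraries 1 and 2 of each genotype, there were 496, against 94 from the same libraries without it. Libraries 1 and 2 of both genotypes share numbers, but the labels do not state that they are pairs. The paper set each Tet-TKO sample beside its matching WT host when comparing cell type proportions, without naming the libraries that match. The differences between libraries 1 and 2 in Tet-TKO and in WT host correlated at r = 0.245 across 11415 genes over 2 pairs. The alternative without Tet-TKO libraries 3 and 4 was chosen after seeing the data. Every called gene that could be tested kept its direction in each alternative, and Rps3a1, Rps3a3 and Wdfy1 were called in all 20. The 2 genes differing from boundary cells became 91 without the filter, 0 after thinning (670 at an unadjusted p below 0.05), 0 with at least 3 markers (721), 6 with tdTomato matched to the sort, 0 with libraries summed in pairs (851), 15 without libraries 3 and 4 and 0 to 9 with 1 library left out, all by edgeR. The single gene differing from posterior cells became 145, 9, 2, 4, 1, 6 and 1 to 6 in the same order, and 3 with doublets removed. The log2 ratio of the member share, −0.67, was −1.63 after thinning, −1.15 with at least 3 markers, −3.17 with 4 or 5 markers after thinning (added after seeing the data) and −0.87 to −0.46 with 1 library left out; with the replicate block it was −1.09, the same as without libraries 3 and 4 and no block. Of 810 values of named genes under alternatives, 590 kept their side of the threshold, 168 lost it, 52 gained it and 0 reversed. Of the called genes named, all but tdTomato, Ank2, Rps13-ps1 and Rps15a-ps8, which were not followed across settings, were called in 9 to 20 of the 16 to 20 alternatives in which each could be tested. Depth limits the germline genes, and values of Tet-TKO library 4 rest on 32 cells.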
